A study of Mus musculus with 28 samples.

Results

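Dopamine is made, stored, taken up and broken down by the products of a small set of genes, and 6 of them were followed here in mouse striatum: Th, Ddc, Slc6a3, Slc18a2, Maoa and Maob. They were chosen by name, not by their values, though earlier results of these data were known. They are 6 of the 19946 genes represented by at least 1 transcript cluster (a probeset summing up a transcript) with a single gene symbol. Each had 1 such cluster, and none of these clusters was among the 120 probesets on the authors' list of masked probes. The study measured striatal RNA of 28 drug-naive mice on Mouse Gene 1.0 ST arrays, with 1 array per mouse and the left and right punches of a mouse pooled. It compared C57BL/6J (B6) mice with B6 mice that carried a segment of the A/J strain from 84 to 96 Mb (build 37), a region that its title ties to methamphetamine sensitivity.

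Batch 1 held 6 B6 littermates without the A/J segment and 6 heterozygous congenic mice with 1 A/J copy, which were littermates of each other and 41 to 68 days old. Batch 2 held 8 B6 controls of 61 to 63 days and 8 homozygous congenic mice with 2 A/J copies, of 52 to 57 days. In batch 2 genotype and age do not overlap, so they cannot be told apart, and the labels do not call those mice littermates. Females and males were equal in number in every group, 3 of each in batch 1 and 4 of each in batch 2. The authors removed the batch effect before deposit, so genotypes were compared within a batch or with batch as a term. The values are log2 expression values, and their precision is limited by the number of arrays.

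Dopamine neurons of the midbrain send their axons to the striatum, where the transmitter acts on spiny projection neurons. Tyrosine hydroxylase (Th) makes L-DOPA from tyrosine in the rate-limiting step, aromatic L-amino acid decarboxylase (Ddc) turns it into dopamine, and the vesicular monoamine transporter (Slc18a2) loads it into vesicles. The dopamine transporter (Slc6a3) takes released dopamine back up and is a target of methamphetamine, as Slc18a2 is, and the monoamine oxidases (Maoa, Maob) degrade it. Because the cell bodies of dopamine neurons lie in the midbrain, most of their transcript is outside the striatum.

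The dissected tissue carried the markers of striatum. The mean log2 value of 15 spiny neuron markers lay between 10.82 and 11.46 on all 28 arrays, with the lowest value in B6 control 1. The mean of 10 midbrain dopamine neuron markers, a list that leaves out the 6 genes, lay between 7.23 and 7.55. A single array stood apart. In B6 control 1, a female of 63 days, 19 of 19 hepatocyte markers had their highest value of the 28 arrays, with a mean of 11.15, while the other 7 B6 controls ranged from 6.89 to 10.13. The homozygous mice ranged from 7.29 to 9.92, the B6 littermates from 8.18 to 8.31 and the heterozygous mice from 8.20 to 8.35. The batch effect was removed before deposit, so these marker levels cannot be set against each other between batches. Because B6 control 1 stood apart, values without it are given beside the main results.

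The start regions of Th and Slc18a2 are shown because both hold the palindrome TGACGTCA, the cAMP response element, and those of Ddc because the gene has 2 annotated start sites. Sequences are from RefSeq (GRCm38.p6), run 5′ to 3′ from 250 bases before to 30 bases after the start site, and have the motif in capitals. The Th window is chr7:142899966-142900245 on the minus strand, that of Slc18a2 is chr19:59260628-59260907 on the plus strand, and those of Ddc are chr11:11898115-11898394 and chr11:11890379-11890658 on the minus strand.
Th: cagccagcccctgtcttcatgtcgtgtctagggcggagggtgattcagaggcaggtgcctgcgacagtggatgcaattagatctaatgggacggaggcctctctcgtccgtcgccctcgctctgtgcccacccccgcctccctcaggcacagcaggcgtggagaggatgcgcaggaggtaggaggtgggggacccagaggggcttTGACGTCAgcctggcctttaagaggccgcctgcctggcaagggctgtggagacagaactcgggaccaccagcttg
Slc18a2: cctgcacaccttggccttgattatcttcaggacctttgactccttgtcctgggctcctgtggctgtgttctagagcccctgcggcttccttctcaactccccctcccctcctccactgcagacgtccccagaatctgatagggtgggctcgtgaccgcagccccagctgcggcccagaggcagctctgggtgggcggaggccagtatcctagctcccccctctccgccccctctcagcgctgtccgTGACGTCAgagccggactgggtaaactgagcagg
Ddc, outer start: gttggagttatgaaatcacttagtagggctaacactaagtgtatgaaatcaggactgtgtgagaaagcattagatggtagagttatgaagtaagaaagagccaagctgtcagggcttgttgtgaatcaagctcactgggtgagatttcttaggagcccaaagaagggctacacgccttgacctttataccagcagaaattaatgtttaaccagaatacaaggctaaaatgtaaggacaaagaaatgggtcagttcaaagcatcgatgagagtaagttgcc
Ddc, inner start: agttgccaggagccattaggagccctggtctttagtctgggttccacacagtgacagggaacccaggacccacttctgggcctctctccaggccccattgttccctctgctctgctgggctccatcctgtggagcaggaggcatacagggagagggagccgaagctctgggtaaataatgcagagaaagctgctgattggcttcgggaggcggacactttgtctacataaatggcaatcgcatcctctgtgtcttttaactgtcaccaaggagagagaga

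The motif, which reads the same on both strands, began at base -45 relative to the start site in Th and at base -4 in Slc18a2. It was in 572 of 32851 promoter windows of that length (1.74%). It was not among the letters of either Ddc window, nor of those of Slc6a3 and Maoa. No window was available for Maob, so that gene was not searched. The outer Ddc window had a GC content of 41.1% and the inner one 54.6%, against 63.9% for Th and 63.6% for Slc18a2. In human and rat, Ddc is known to use separate neuronal and non-neuronal start sites, and the single Ddc cluster of the array does not separate the starts.

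Among the synthesis genes, Th (chromosome 7, 142892779 to 142899995 in GRCm38.p6) averaged 8.08 ± 0.16 (SD, n = 6) in B6 littermates, with a lowest, median and highest value of 7.96, 8.00 and 8.34. Heterozygous mice had 8.01 ± 0.20 (SD, n = 6), from 7.76 through 7.99 to 8.29. In batch 2 the B6 controls were at 7.98 ± 0.16 (SD, n = 8; 7.80, 7.93 and 8.28), and the homozygous mice at 8.03 ± 0.13 (SD, n = 8; 7.80, 8.03 and 8.21). The ranges of both genotypes of a batch overlapped, and high and low mice occurred in every group. None of the 6 genes lies between 84 and 96 Mb of its chromosome in this build, which is later than the one that gives the segment. In bulk tissue, fewer cells or axons of a type and less RNA in each cannot be told apart.

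Ddc (chromosome 11, 11814101 to 11898144) averaged 7.03 ± 0.10 (SD, n = 6) in B6 littermates (6.90, 7.06 and 7.15) and 6.97 ± 0.20 (SD, n = 6) in heterozygous mice (6.55, 7.05 and 7.07). The B6 controls had 7.06 ± 0.37 (SD, n = 8; 6.73, 6.91 and 7.90) and the homozygous mice 6.97 ± 0.15 (SD, n = 8; 6.73, 6.94 and 7.25). Single mice set the spread of both wider groups, with the lowest value in heterozygous congenic 1 and the highest in B6 control 1. Without B6 control 1 the B6 controls stood at 6.94 ± 0.17 (SD, n = 7).

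Of the transporters, Slc6a3 (chromosome 13, 73536128 to 73578672) averaged 7.28 ± 0.12 (SD, n = 6) in B6 littermates (7.17, 7.25 and 7.51) and 7.28 ± 0.09 (SD, n = 6) in heterozygous mice (7.14, 7.28 and 7.40). It stood at 7.26 ± 0.09 (SD, n = 8; 7.09, 7.26 and 7.36) in B6 controls and 7.29 ± 0.14 (SD, n = 8; 7.08, 7.27 and 7.49) in homozygous mice. The group means were close together and each pair of genotypes overlapped over most of its range. Slc18a2 (chromosome 19, 59260878 to 59296012) averaged 6.59 ± 0.16 (SD, n = 6; 6.42, 6.61 and 6.82) in B6 littermates and 6.53 ± 0.13 (SD, n = 6; 6.35, 6.58 and 6.70) in heterozygous mice. Its values were 6.58 ± 0.13 (SD, n = 8; 6.40, 6.59 and 6.78) in B6 controls and 6.57 ± 0.18 (SD, n = 8; 6.35, 6.55 and 6.92) in homozygous mice. The lowest and the highest mice of this gene came from different groups, and no genotype lay apart. The deposited values carry no detection call, so a level near background cannot be recognised from them.

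The monoamine oxidase genes are neighbours on the X chromosome (Maoa 16619698 to 16687812, Maob 16709281 to 16817366). Maoa averaged 8.13 ± 0.14 (SD, n = 6; 7.97, 8.11 and 8.37) in B6 littermates and 8.10 ± 0.10 (SD, n = 6; 7.97, 8.10 and 8.27) in heterozygous mice. B6 controls had 8.09 ± 0.13 (SD, n = 8; 7.84, 8.11 and 8.28) and homozygous mice 8.13 ± 0.08 (SD, n = 8; 7.96, 8.15 and 8.21). The lowest of the 28 values was that of B6 control 1.

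Maob averaged 9.32 ± 0.12 (SD, n = 6; 9.19, 9.29 and 9.50) in B6 littermates and 9.33 ± 0.09 (SD, n = 6; 9.21, 9.36 and 9.44) in heterozygous mice. The B6 controls had 9.41 ± 0.55 (SD, n = 8; 9.04, 9.17 and 10.65) and the homozygous mice 9.22 ± 0.19 (SD, n = 8; 9.01, 9.15 and 9.53). The highest value was that of B6 control 1, and without it the B6 controls averaged 9.23 ± 0.23 (SD, n = 7), close to the homozygous mice.

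**Figure D1:**
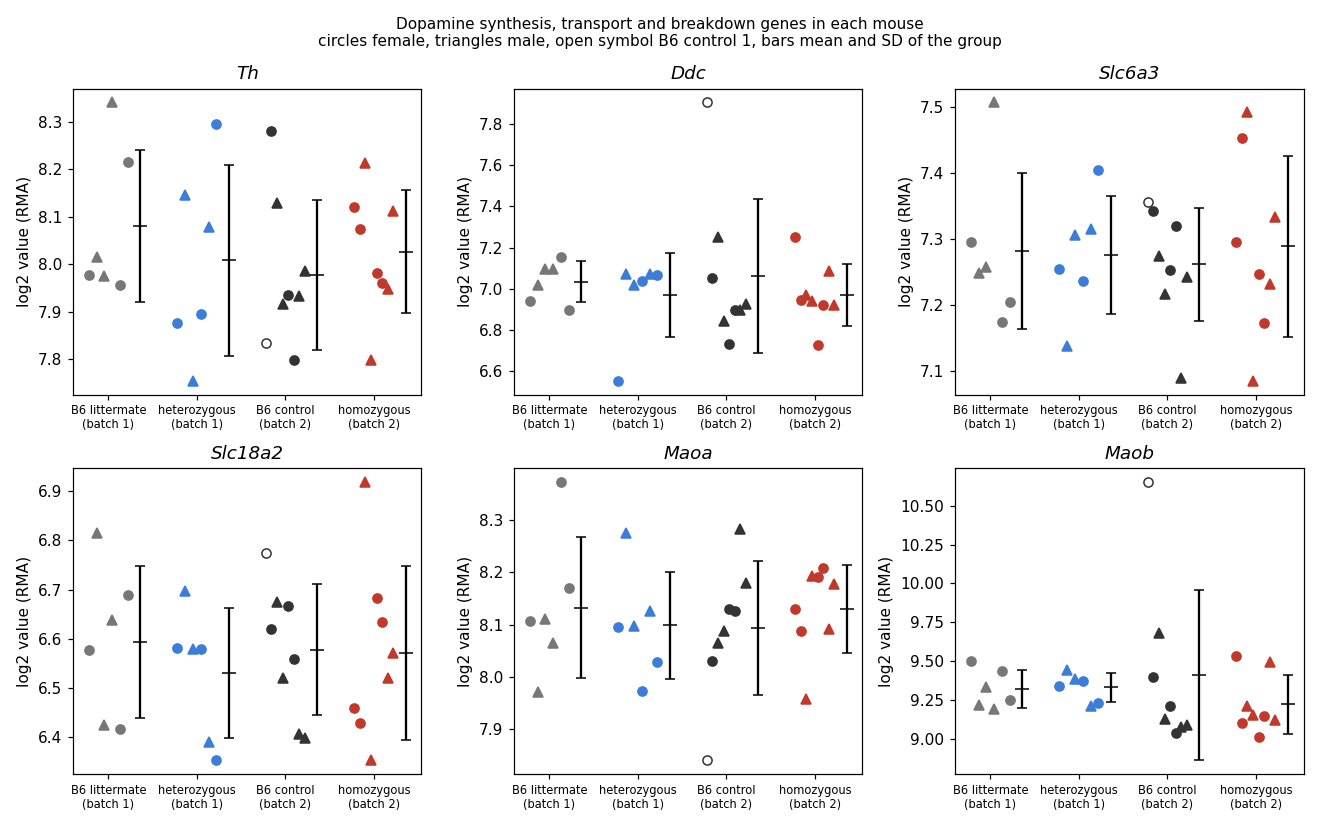
Log2 expression value of the 6 genes in each of 28 mice (y axis, own scale per gene) by group (x axis), with circles for females, triangles for males, an open symbol for B6 control 1 and bars for the mean and SD of the group. Within each batch both genotypes overlap for every gene, and B6 control 1 is the highest point for Ddc (7.90) and Maob (10.65) and the lowest for Maoa (7.84).

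The 6 genes differed in how much mice of a group varied. The SD within groups was 0.320 for Maob, 0.240 for Ddc, 0.161 for Th, 0.152 for Slc18a2, 0.113 for Maoa and 0.110 for Slc6a3, against a median of 0.103 over all 19946 genes. Without B6 control 1 those of Maob and Ddc fell to 0.174 and 0.159, with a median of 0.0946 over all genes. After that change the SD of Maob was larger than that of 94.3% of the genes, that of Slc18a2 than 90.4%, and that of Maoa than 58.3%.

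The first question of the design was whether carrying the A/J segment changed these genes. In the comparison of 14 carriers with 14 B6 mice, none of the 6 was called by limma at an adjusted p under 0.05 over all 19946 genes, and none had an unadjusted p under 0.05. Over all genes 4 were called (0.0201%) and 1058 had an unadjusted p under 0.05 (5.3%). The fit without B6 control 1 called none of the 6 either, against 5 of all genes (0.0251%). The difference, carriers minus B6, was -0.0025 for Th, -0.081 for Ddc, 0.013 for Slc6a3, -0.031 for Slc18a2, 0.0065 for Maoa and -0.10 for Maob on the log2 scale. Adjusted p by limma ran from 0.970 for Ddc and Maob to 0.997 for Th. Of the 14 carriers, 7 lay above the B6 mean of their batch for Th and Slc6a3, 6 for Ddc, Maoa and Maob, and 4 for Slc18a2. The median difference of the 6 genes was -0.017, against 0.0091 over all genes.

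The 95% intervals bound the size of a difference. For Slc6a3, the transporter of the plasma membrane, the interval of the fold, carriers over B6, was 0.952 to 1.07, and for Maoa it was 0.946 to 1.07. For Th it was 0.918 to 1.09 and for Slc18a2 0.905 to 1.06. The interval of Ddc, 0.838 to 1.07, and that of Maob, 0.793 to 1.09, were wider. Once B6 control 1 was left out, the log2 difference was -0.0016 for Maob, -0.011 for Ddc, -0.016 for Th, 0.019 for Slc6a3, -0.016 for Slc18a2 and -0.015 for Maoa. A p that misses the threshold does not show that the genotypes have equal levels. In the authors' deposited table, whose p-values pool the batches, p was 0.968 for Th, 0.364 for Ddc, 0.751 for Slc6a3, 0.585 for Slc18a2, 0.878 for Maoa and 0.389 for Maob. The methods' t-test on the same values called none of the 6 at p under 0.05 or after Benjamini-Hochberg adjustment.

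The effect of a single A/J copy was assessed among the littermates of batch 1. None of the 6 genes was called by limma, none had an unadjusted p under 0.05, and no gene of all tested was called (0%), with 735 at an unadjusted p under 0.05 (3.68%). Heterozygous minus littermate differences were -0.072 for Th, -0.065 for Ddc, -0.0057 for Slc6a3, -0.063 for Slc18a2, -0.034 for Maoa and 0.010 for Maob. Of these values 5 were below 0, and the 95% interval of Th ran from -0.26 to 0.11 and that of Slc18a2 from -0.24 to 0.11. No gene separated the groups: 0 of 6 had ranges that did not overlap, against 31 of all genes (0.155%). Adjusted p by limma was 0.9999 for all 6.

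The effect of 2 A/J copies was assessed in batch 2. None of the 6 genes was called or had an unadjusted p under 0.05, while over all genes limma called 1 (0.00501%) and 1244 had an unadjusted p under 0.05 (6.24%). Homozygous minus control differences were 0.050 for Th, -0.093 for Ddc, 0.027 for Slc6a3, -0.0063 for Slc18a2, 0.037 for Maoa and -0.19 for Maob. Maob had the largest of these, with a 95% interval from -0.50 to 0.12, 6 of 8 homozygous mice below the B6 mean and an adjusted p by limma of 0.863. Leaving out B6 control 1 brought it to -0.011 (from -0.19 to 0.16) and turned Ddc to 0.033. For Maoa the value became -2.8e-05. The hepatocyte markers of that array, given above, move with these values, and their part in the result was not tested. In that batch 0 of 6 genes had ranges that did not overlap, against 20 of all genes (0.1%).

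**Figure D2:**
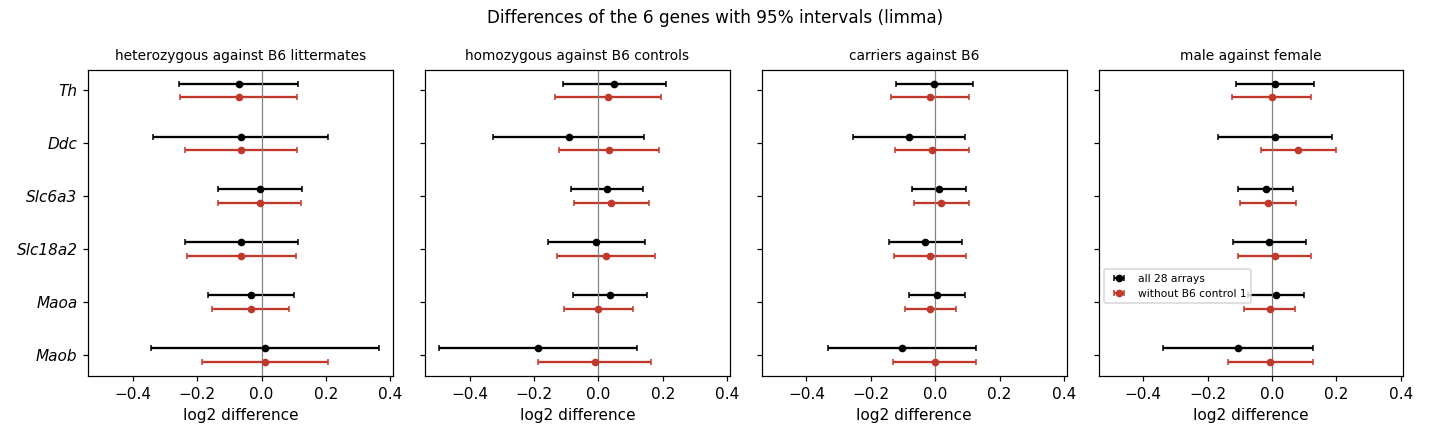
Log2 difference of each gene (x axis, with 95% intervals from limma) for 1 A/J copy, 2 A/J copies, all carriers and sex, with all 28 arrays in black and without B6 control 1 in red. Every interval includes 0, and those of Maob and Ddc narrow in the fit without that array.

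The effect of 2 copies was also set against that of 1 copy. For Th the homozygous effect minus the heterozygous effect was 0.12 (95% interval -0.12 to 0.37) and for Maob -0.20 (-0.67 to 0.27), with an adjusted p by limma of 0.999 for both. In the fit without B6 control 1 it was -0.021 for Maob (-0.28 to 0.24) and 0.10 for Th, and that of Ddc went from -0.028 to 0.098. None of the 6 genes was called, none had an unadjusted p under 0.05, and limma called no gene of all tested (0%), with 1011 at an unadjusted p under 0.05 (5.07%).

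Sex was tested because Maoa and Maob are X-linked. None of the 6 genes was called by limma or had an unadjusted p under 0.05, while over all genes 11 were called (0.0551%) and 1464 had an unadjusted p under 0.05 (7.34%). Male minus female, the log2 difference was 0.013 for Maoa (95% interval -0.074 to 0.10) and -0.11 for Maob (-0.34 to 0.13), the latter -0.0048 without B6 control 1, a female. The 14 females averaged 8.11 ± 0.12 (SD) for Maoa and the 14 males 8.12 ± 0.10 (SD). The other 4 differences ran from -0.019 for Slc6a3 to 0.010 for Th. In the fit without B6 control 1 that of Ddc went from 0.0098 to 0.082 (95% interval -0.034 to 0.20, adjusted p by limma 0.797), and that of Maoa was -0.0077.

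Genes around the pathway were read in 3 lists, and 0 of them were called by limma in any of the 5 comparisons. For each list and comparison the gene of smallest p is named with its log2 difference. The first list held 7 measured genes that make or recycle tetrahydrobiopterin, the cofactor of Th. Spr (sepiapterin reductase, which makes the cofactor) was named in 4 of the comparisons, and Pts, of the same route, in the difference of effects, where its log2 difference was 0.043 (adjusted p = 0.999 by limma). By limma, the log2 difference of Spr was -0.082 in carriers (adjusted p = 0.925) and -0.098 in males against females (adjusted p = 0.620), and without B6 control 1 these were -0.059 and -0.074. In heterozygous mice it was -0.096 (adjusted p = 0.9999 by limma). In homozygous mice it was -0.071, and -0.028 without B6 control 1. Among 7 other catecholamine enzymes Pnmt, which makes adrenaline, was named with a log2 difference of 0.053 in carriers (adjusted p = 0.967 by limma) and 0.076 in homozygous mice (adjusted p = 0.850 by limma). Akr1a1, an aldehyde reductase, was named with 0.042 in heterozygous mice (adjusted p = 0.9999 by limma) and -0.073 for the difference of effects, which was -0.049 without B6 control 1. For sex it was Aldh1a7, an aldehyde dehydrogenase, whose log2 difference of -0.23 (adjusted p = 0.875 by limma) was -0.019 without B6 control 1. The third list held 5 other monoamine transporters. By limma, Slc29a4, a low-affinity uptake transporter, had a log2 difference of -0.17 in heterozygous mice (adjusted p = 0.9999) and 0.083 in homozygous mice, and the difference of these effects was 0.26 (95% interval 0.055 to 0.46, adjusted p = 0.854). Slc22a2, an organic cation transporter, was named in carriers with a log2 difference of 0.040 (adjusted p = 0.967 by limma), and Slc18a1, a second vesicular monoamine transporter, for sex with -0.074 (adjusted p = 0.664 by limma). When B6 control 1 was left out, other genes had the smallest p: Dbh among the enzymes in carriers, Gch1 among the cofactor genes in homozygous mice and in the difference of effects, Sult1a1 among the enzymes in the difference of effects, and Pnmt for sex. In B6 control 1, 5 of the 7 cofactor genes, 6 of the 7 other enzymes and 1 of the 5 other transporters had their highest value. So had 2 of the 6 genes themselves. The share of all genes with their highest value in that array was not computed, so whether these counts are particular to the lists is not known.

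How the genes varied together from mouse to mouse was assessed on deviations from the group mean, with 2-sided p-values from 100000 permutations of mice within groups and adjustment over the 15 pairs. Over 28 mice 4 of the 15 pairs were called, and 5 had an unadjusted p under 0.05. Slc6a3 and Maoa went in opposite directions (r = -0.634, adjusted p = 0.0048 by permutation), also by rank (rho = -0.630, adjusted p = 0.00623). Ddc and Maob varied in the same direction (r = 0.843, adjusted p = 0.0048 by permutation), also by rank (rho = 0.690, adjusted p = 0.00623). Th and Slc6a3 varied in the same direction (r = 0.491, adjusted p = 0.0463 by permutation), without a call by rank (rho = 0.349, adjusted p = 0.344). Slc18a2 and Maoa went in opposite directions (r = -0.475, adjusted p = 0.04995 by permutation), again without a call by rank (rho = -0.316, adjusted p = 0.362). As a background, 4.35% of all genes had an absolute r of at least 0.5 with Slc6a3, 3.91% with Th, 8.96% with Slc18a2, 19.8% with Maoa, 28.1% with Ddc and 31.9% with Maob. For the same genes in that order the shares were 4.11%, 8.98%, 7%, 8.27%, 8.24% and 9.54% when B6 control 1 was left out. Th with Slc6a3 and Slc18a2 with Maoa did not reach an absolute r of 0.5. The share of all gene pairs that the permutation test would call was not computed, so the count of called pairs has no matching background.

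The pair of Slc6a3 and Maoa had the same sign in both batches, r = -0.523 in batch 1 (n = 12, adjusted p = 0.467 by permutation) and r = -0.719 in batch 2 (n = 16, adjusted p = 0.00503 by permutation), or -0.775 without B6 control 1 (n = 15, adjusted p = 0.0075 by permutation). Over both batches it was r = -0.632 without that array (n = 27, adjusted p = 0.0167 by permutation), and without the 2 mice farthest from the median of Slc6a3 r = -0.593 (adjusted p = 0.0048 by permutation). The array values of Slc6a3 and Maoa went in opposite directions in every one of these selections, without a call in batch 1 alone. The group means of Slc6a3, 7.26 to 7.29, lay below the median gene mean of 7.83. Ordered from the most to the least alike of 19945 genes, Maoa stood at place 19914 for Slc6a3, and Slc6a3 at place 19677 for Maoa.

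Th and Slc6a3, both expressed by dopamine neurons, had r = 0.448 in batch 1 (adjusted p = 0.467 by permutation, n = 12) and r = 0.537 in batch 2 (adjusted p = 0.0743 by permutation, n = 16), or 0.647 without B6 control 1 (adjusted p = 0.0411 by permutation, n = 15). Over the 27 mice without it the value was r = 0.547 (adjusted p = 0.0192 by permutation), and without the 2 mice farthest from the median of Th it was r = 0.411 (adjusted p = 0.255 by permutation). The call was also lost with all 28 mice after quantile normalization (r = 0.480, adjusted p = 0.0598 by permutation) and on deviations from group and sex means (r = 0.525, adjusted p = 0.0637 by permutation). For the pair of Slc18a2 and Maoa, r was -0.242 in batch 1 and -0.649 in batch 2 (adjusted p = 0.0238 by permutation), where the call was lost without B6 control 1 (r = -0.588, adjusted p = 0.0839 by permutation). Over both batches it was -0.402 without that array (adjusted p = 0.191 by permutation) and -0.373 without the 2 mice farthest from the median of Slc18a2 (adjusted p = 0.298 by permutation). The remaining dopamine neuron pairs, Th with Ddc (r = 0.0769), Th with Slc18a2 (r = 0.155) and Slc6a3 with Slc18a2 (r = 0.259), were not called.

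Ddc and Maob were closely related in batch 2, where r was 0.963 (n = 16, adjusted p = 0.00045 by permutation) and 0.864 without B6 control 1 (n = 15, adjusted p = 0.00315 by permutation), and not in batch 1, where it was -0.0477 (n = 12, adjusted p = 0.974 by permutation). The difference between the batches was not tested. The pooled value was 0.572 without B6 control 1 (adjusted p = 0.0192 by permutation), and without heterozygous congenic 1 and B6 control 1, the 2 mice farthest from the median of Ddc, it was 0.724 (adjusted p = 0.0048 by permutation). In batch 2 Maoa went opposite to both, with r = -0.707 for Ddc (adjusted p = 0.0407 by permutation) and r = -0.747 for Maob (adjusted p = 0.0257 by permutation). Both calls were lost in batch 2 without B6 control 1, at r = -0.358 for Ddc (adjusted p = 0.283 by permutation) and r = -0.452 for Maob (adjusted p = 0.172 by permutation). Over all mice neither of these was called, and Maoa with Maob was at r = -0.0964 without B6 control 1.

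**Figure D3:**
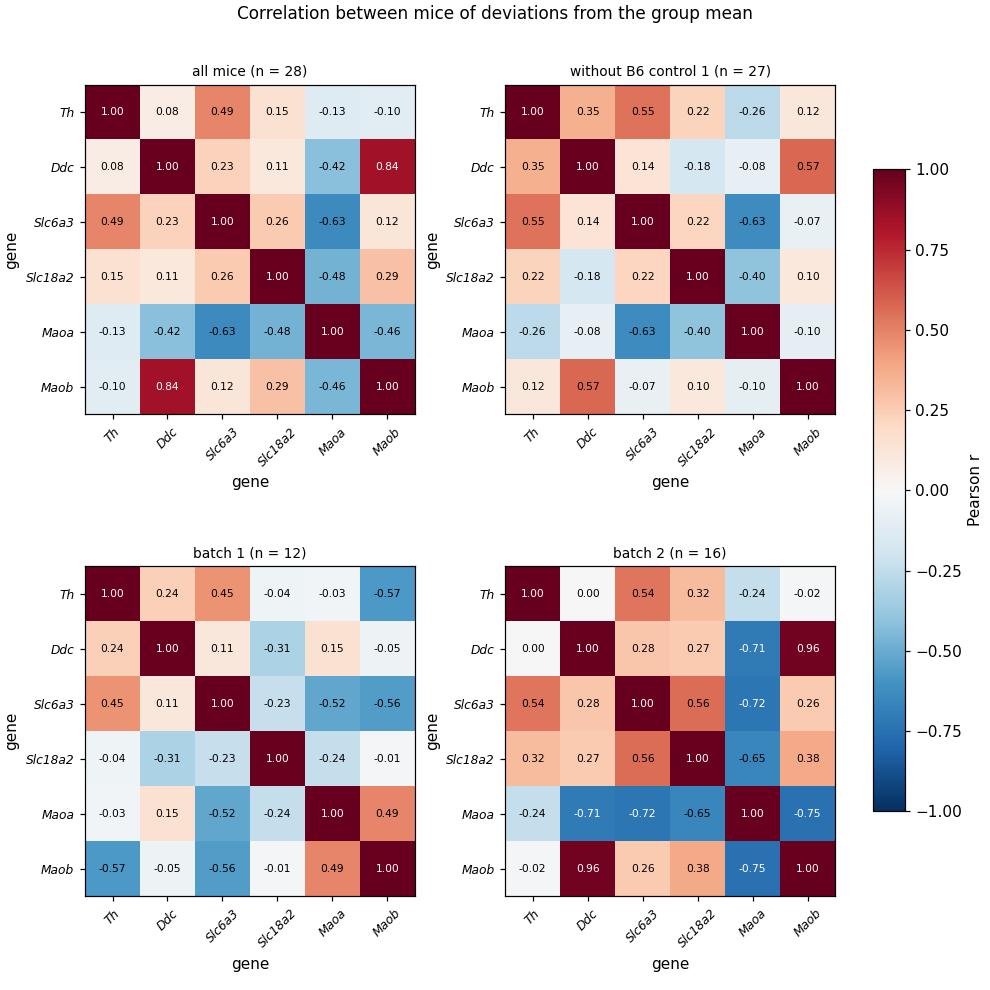
Pearson r between deviations from the group mean for each pair of the 6 genes (both axes are genes, colour and number give r), over all mice, without B6 control 1, in batch 1 and in batch 2. Slc6a3 with Maoa is negative in all 4 panels, while Ddc with Maob is near 0 in batch 1 and 0.96 in batch 2.

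**Figure D4:**
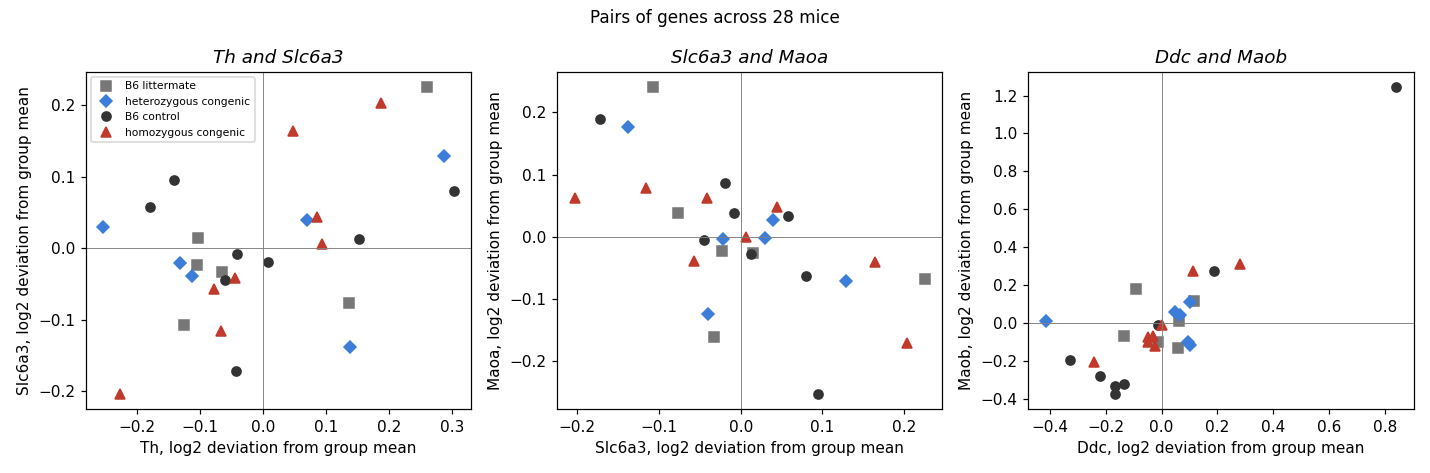
Deviations from the group mean (log2, both axes) of 3 pairs of genes, 1 point per mouse and 1 symbol per group. B6 control 1 is the point at the far upper right for Ddc and Maob, and the mice spread along a falling line for Slc6a3 and Maoa.

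The levels of Maob and Ddc were then set beside the hepatocyte markers, which varied widely in batch 2. Liver is known to express both genes strongly. In batch 2 the 3 mice with the highest marker means were B6 control 1 (11.15), B6 control 3 (10.13) and homozygous congenic 1 (9.92). Maob was at 10.65, 9.68 and 9.53 in them, its 3 highest values of that batch. Over 16 mice of batch 2, r with the marker mean was 0.899 for Maob (adjusted p = 0.00036 by permutation, over 72 relations of 6 genes with 12 lists) and 0.881 for Ddc (adjusted p = 0.00048 by permutation). By rank these were rho = 0.926 (adjusted p = 0.00072 by permutation) and rho = 0.897 (adjusted p = 0.00144 by permutation). Leaving out the 2 mice farthest from the median of the markers gave r = 0.900 and 0.787.

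The relation was still called when B6 control 1 was left out, at r = 0.939 for Maob (n = 15, adjusted p = 0.00144 by permutation) and 0.863 for Ddc (n = 15, adjusted p = 0.00144 by permutation). In batch 1, where the marker means spanned 8.18 to 8.35, r was -0.150 for Maob and 0.426 for Ddc (n = 12, adjusted p = 0.957 and 0.820 by permutation). All 19 hepatocyte markers had an r of at least 0.5 with Maob over 27 mice and 18 of 19 with Ddc. Maoa went the other way in batch 2 (r = -0.775, adjusted p = 0.00636 by permutation), and r was -0.623 without B6 control 1 (adjusted p = 0.0792 by permutation). Over 28 mice that relation was called (r = -0.564, adjusted p = 0.00965 by permutation), and over the 27 without B6 control 1 it was not (r = -0.385, adjusted p = 0.111 by permutation). For Th (r = 0.265), Slc6a3 (r = 0.347) and Slc18a2 (r = 0.354) no relation was called in batch 2, and that of Th was r = 0.574 without B6 control 1 (adjusted p = 0.110 by permutation). The arrays of a batch shared their processing.

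**Figure D5:**
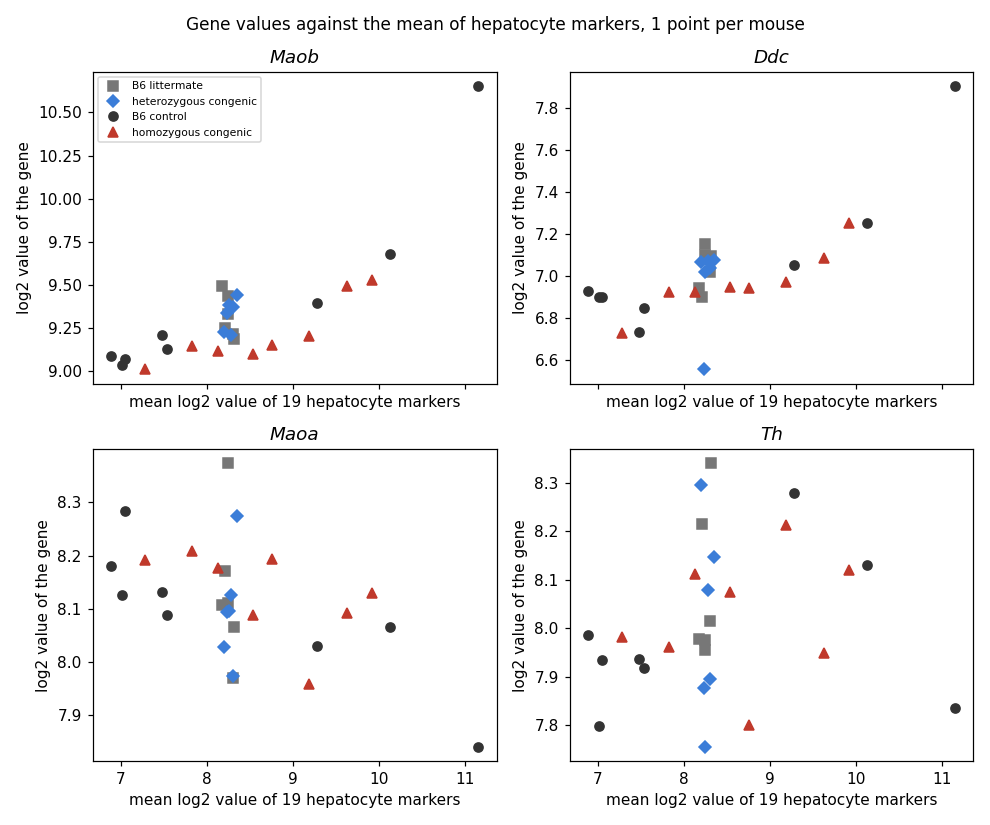
Log2 value of Maob, Ddc, Maoa and Th (y axes) against the mean log2 value of 19 hepatocyte markers (x axis), 1 point per mouse and 1 symbol per group. In batch 2 Maob and Ddc climb with the markers up to B6 control 1 (10.65 and 7.90), whereas batch 1 mice are gathered near 8.2 on the x axis.

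Among the other 11 marker lists, choroid plexus was related to Maob over 28 mice (r = 0.716, adjusted p = 0.00024 by permutation) and over 27 without B6 control 1 (r = 0.719, adjusted p = 0.00036 by permutation), also by rank (rho = 0.688, adjusted p = 0.0036 by permutation). With Ddc that list had r = 0.568 (adjusted p = 0.0370 by permutation), not called by rank (adjusted p = 0.102), and r = 0.401 without B6 control 1 (adjusted p = 0.172 by permutation). In batch 2 the choroid plexus mean was highest in B6 control 1 (7.82) and B6 control 3 (7.54), which also had the highest hepatocyte means. In batch 1 it was highest in B6 littermate 1 (7.97), whose hepatocyte mean was 8.18. Whether the choroid plexus relation is separate from the hepatocyte relation was not tested. Endothelium and pericyte markers were related to Ddc over 28 mice (r = 0.625, adjusted p = 0.0269 by permutation), also by rank (rho = 0.582, adjusted p = 0.0334 by permutation), without a call over 27 (r = 0.496, adjusted p = 0.132 by permutation). In batch 2 that relation was called with B6 control 1 (r = 0.812, adjusted p = 0.00054 by permutation) and without it (r = 0.781, adjusted p = 0.0099 by permutation), and in batch 1 r was 0.136. Kidney tubule markers were related inversely to Maoa (r = -0.647, adjusted p = 0.00965 by permutation) and positively to Slc18a2 (r = 0.558, adjusted p = 0.0423 by permutation), neither called by rank (adjusted p = 0.0797 and 0.190). Without B6 control 1 the call for Maoa held (r = -0.647, adjusted p = 0.0133 by permutation) and that for Slc18a2 did not (r = 0.536, adjusted p = 0.0970 by permutation). The kidney tubule mean lay between 6.58 and 6.92 on all arrays, below the median gene mean of 7.83. The mean of 1026 olfactory receptor genes, described below, had the same signs with Maoa (r = -0.491) and Slc18a2 (r = 0.618). Whether the kidney tubule relations are separate from that mean was not tested. Spiny neuron markers had r = 0.429 with Th, called by rank alone (rho = 0.526, adjusted p = 0.0334 by permutation) and not over 27 mice (rho = 0.493, adjusted p = 0.0873 by permutation). The mean of 11 astrocyte markers had r = 0.506 with Ddc, again called by rank alone (rho = 0.559, adjusted p = 0.0334 by permutation) and not over 27 mice (rho = 0.482, adjusted p = 0.131 by permutation). The median r of the single astrocyte markers with Ddc had the opposite sign, -0.494 over 28 mice, with 2 of 11 at 0.5 or more. Over 28 mice none of the 6 genes was called with the lists for midbrain dopamine neurons, serotonin and noradrenaline neurons, cholinergic neurons, oligodendrocytes, microglia or blood.

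The genes whose mouse-to-mouse pattern was most like each member were listed by r over 28 mice, as a description without a p. For Maob they were Bche (butyrylcholinesterase, made in liver, 0.977), Steap4 (0.975), Rida (0.974), Plbd1 (0.973) and Slc25a13 (0.971). Those of Ddc were Sqor (0.912), Pik3ap1 (0.912), Ces2g (0.909), Hnf4a (a transcription factor of liver, 0.906) and Ceacam1 (0.906). Without B6 control 1 the leading genes were Bche (0.924) and Steap4 (0.920) for Maob, and Rdh7 (0.782) and Papss2 (0.779) for Ddc. The others of the 5 were then Crot (0.915), Rida (0.911) and Hgfac (0.906) for Maob, and Sqor (0.775), Pik3ap1 (0.774) and Ceacam1 (0.772) for Ddc.

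Maoa was most like Chrm2 (a muscarinic acetylcholine receptor, 0.881), Sdf4 (0.852), Ndp (0.828), Vmp1 (0.810) and Trim59 (0.808). Th was most like Ddost (0.813), Cdk2ap2 (0.797), Vrk3 (0.775), Tmem134 (0.760) and Adgrg1 (0.760). Slc6a3 was most like Qrfp (0.758), Ubd (0.747), Dusp13 (0.730), Ly6k (0.717) and Grm6 (0.707), and Slc18a2 most like Olfr314 (0.833), Nepn (0.818), Olfr1043 (0.809), Etv3l (0.788) and Adam5 (0.786). With B6 control 1 left out, Ddost (0.836), Qrfp (0.749), Olfr314 (0.823) and Chrm2 (0.841) still led for Th, Slc6a3, Slc18a2 and Maoa. The genes that then entered the 5 were Irf8 (0.802) and Rplp0 (0.793) for Th, Hspg2 (0.724) and Myoz1 (0.719) for Slc6a3, Hcst (0.780) for Slc18a2 and Haus6 (0.787) for Maoa. The 6 genes themselves were left out of these lists. Ordered among all 19945 other genes over 28 mice, the closest was Maob at place 321 for Ddc, followed by Th at place 521 for Slc6a3 and Slc6a3 at place 529 for Th. The order changed over the 27 mice without B6 control 1, where Th was at place 227 for Slc6a3, Slc6a3 at 435 for Th and Maob at 529 for Ddc.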

How the data were processed

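Striatal RNA of 28 mice was hybridised to Mouse Gene 1.0 ST arrays. The authors deposited 1 log2 value per transcript cluster and mouse, computed by RMA in Affymetrix Expression Console (named without a version in the submitters' processing notes). According to the deposited notes, the authors masked probes over SNPs of the A/J segment and then ran ComBat to take out the batch effect, so levels are not compared between batches. They also deposited p-values from a test of both B6 groups against both congenic groups. The deposited list of masked probes holds other values, 120 probeset IDs.

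The log2 values were used as deposited. Of 35556 clusters, 21797 have 1 symbol, 1613 several and 12146 none in the platform annotation, and the brightest cluster of each gene left 19946 genes. Comparisons used limma 3.58.1 in R 4.3.3 with Benjamini-Hochberg adjustment over all genes, threshold 0.05, and a sex term, with batch for carriers. Correlations used deviations from group means and permutations within groups (python 3.11.15, numpy 2.4.6, scipy 1.17.1), and both scripts were tested on simulated data. Coordinates and sequences are from the RefSeq table, GRCm38.p6. Alternatives were another normalization, a filter on dim genes, sex, age or replicate terms, all clusters, single batches and leaving out each array. Animals are separate mice, per the labels.

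The 6 genes, the pathway lists, the 12 cell type lists and the rule for named genes were chosen with earlier results of these data known. The rule took the 6 genes, the pathway gene of smallest p in each list and comparison, and for each of the 6 the 5 genes of highest r over 28 and over 27 arrays. The pathway lists were 8 cofactor genes, 9 other enzymes and 7 other transporters. Genes of these lists with no single-symbol cluster here were not analysed.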

Additional observations from a re-analysis of the deposited data

Results flagged for a closer look

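For the 6 genes and the hepatocyte marker mean, the highest and lowest mouse of each group were set against the gap to their nearest neighbour, over 28 groups of values. Chance flags about 1 in 20 such groups, and 4 values stood apart. Ddc was 6.55 in heterozygous congenic 1, the lowest of 6, with the gap to the next mouse spanning 0.896 of the group's range. Slc6a3 was 7.51 in B6 littermate 4, the highest of 6, with a gap of 0.634 of the range. B6 control 1 was the highest of 8 for Ddc at 7.90 (gap 0.558 of the range) and for Maob at 10.65 (gap 0.601 of the range), and it was the array with the highest hepatocyte markers.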

How the results depend on the processing

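None of the 6 genes was called by limma in any of the 5 comparisons under any alternative that tested it. This includes leaving out each array in turn. The filter on dim genes kept genes with a mean above 7.83, so Ddc, Slc6a3 and Slc18a2 were not tested under it. Small log2 differences changed sign. With age as a covariate, carriers minus B6 was -0.0016 for Maoa, and homozygous minus control -0.020 for Th and 0.025 for Slc18a2. In batch 1 alone, carriers minus B6 was -0.0057 for Slc6a3, -0.034 for Maoa and 0.010 for Maob, and male minus female 0.034 for Slc6a3, 0.058 for Slc18a2 and -0.018 for Maoa. In batch 2 alone, carriers minus B6 was 0.050 for Th, and male minus female -0.074 for Ddc. Batch 2 without B6 control 1, chosen after seeing the data, gave 0.028 for Th, 0.031 for Ddc and 0.020 for Slc18a2, the same fit for carriers and homozygous mice. The causes were not tested.

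Correlations of same-numbered mice ran from -0.065 to 0.17 in batch 1 and from -0.52 to 0.69 in batch 2. Not every mouse correlated best with its own number. Whether the replicate numbers pair the mice was not tested, and the main fits do not use them. With the replicate block, male minus female rested on mice numbered 4 and 5 of batch 1, the only same-numbered mice that differ in sex. It was -0.010 for Ddc, 0.21 for Slc6a3, 0.016 for Slc18a2 and -0.078 for Maoa, and no member was called. B6 littermate 4, flagged above for Slc6a3, was 1 of these mice. Calls over all genes in that fit were 1 for carriers, 3 for homozygous mice, 1 for the difference of effects and 4 for sex.

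Calls over all genes also changed otherwise. The filter on dim genes gave 3 for homozygous mice and 6 for sex, age gave 2 for homozygous mice, all clusters gave 31 for sex, batch 1 gave 0 for carriers and 7 for sex, and batch 2 gave 4 for homozygous mice (3 without B6 control 1) and 6 for sex. Leaving out single arrays gave 4 to 7 for carriers (7 without heterozygous congenic 3) and 1 to 2 for homozygous mice (2 without B6 littermate 5, homozygous congenic 3, B6 control 6 or B6 control 7).

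Leaving out single arrays, carriers minus B6 ran from -0.024 to 0.022 for Th, -0.0053 to 0.034 for Slc6a3 and -0.015 to 0.029 for Maoa. Heterozygous minus littermate ran from -0.092 to 0.021 for Ddc, -0.031 to 0.043 for Slc6a3, -0.069 to 0.018 for Maoa and -0.024 to 0.043 for Maob. Homozygous minus control ran from -0.14 to 0.033 for Ddc, -0.0049 to 0.056 for Slc6a3, -0.059 to 0.026 for Slc18a2 and -3e-05 to 0.064 for Maoa. The difference of effects ran from -0.11 to 0.098 for Ddc and -0.016 to 0.061 for Slc6a3, and male minus female from -0.012 to 0.037 for Th, -0.027 to 0.082 for Ddc, -0.038 to 0.010 for Slc18a2 and -0.0077 to 0.035 for Maoa.

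Of the pairs, 4 were called over all mice, 2 by Spearman rho, 0 in batch 1, 2 on deviations from group and sex means, 2 after quantile normalization and 2 without the 2 arrays farthest from the median. Signs changed for Ddc and Slc18a2 (rho -0.0137, -0.315 in batch 1, -0.179 without B6 control 1, -0.078 in batch 2 without it, -0.165 without the 2 farthest arrays) and for Slc6a3 and Maob (rho -0.0471, -0.562 in batch 1, -0.0704 without B6 control 1). In batch 1 they changed for Th and Slc18a2 (-0.0398), Ddc and Maoa (0.155), Ddc and Maob (-0.0477), Slc6a3 and Slc18a2 (-0.233), Slc18a2 and Maob (-0.0112) and Maoa and Maob (0.489). Th and Maob changed without B6 control 1 (0.115) and in batch 2 without it (0.478). The number of arrays, and signal over background that the deposited values do not give, limit what small differences can be seen.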

Other observations

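On the X chromosome Maoa, Maob and Ndp (16885521 to 16911774 in GRCm38.p6) lie next to each other, and Ndp, which encodes the secreted protein norrin, was among the 5 genes most like Maoa. Its r with Maoa was 0.828 over 28 mice, 0.789 in batch 1, 0.861 in batch 2 and 0.767 without B6 control 1. With Maob, which lies between them, it was -0.587 over 28 mice, 0.143 in batch 1 and -0.824 in batch 2, and without B6 control 1 it was -0.2235 over 27 mice and -0.500 in batch 2. Fundc1 (17519967 to 17572329) had r = 0.697 with Maoa over 28 mice and 0.574 without B6 control 1. Efhc2, which lies between Ndp and Fundc1, had r = 0.298 with Maoa (0.119 without that array), and Cypt1, on the other side of Maoa, had r = -0.256 (-0.329 without it).

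Of the 5 genes most like Slc18a2, 2 were olfactory receptors. In a list of 1026 olfactory receptor genes, added after the data were seen, the mean lay between 5.39 and 5.62 on the 28 arrays. Its r with Slc18a2 was 0.618 over 28 mice, 0.606 in batch 1, 0.658 in batch 2 and 0.586 without B6 control 1. With Maoa it was -0.491 over 28 mice and -0.425 without that array, and with Th 0.043 and 0.102. These are descriptions over arrays that share their processing, and no p was computed. Whether the called pair of Slc18a2 and Maoa is separate from the olfactory receptor mean was not tested.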
